A study of Mus musculus with 2 samples.

Results

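Potassium channel genes were taken as the GENCODE M21 protein-coding genes whose symbols start with Kcn, except Kcnq1 and Kcnk9, which gave 92 of the 21951 protein-coding genes of that annotation. The rule for membership is the symbol alone. TET2 binding was profiled by chromatin immunoprecipitation and sequencing (ChIP-seq) in adipocytes that had been differentiated in culture from stem cells of mouse inguinal white adipose tissue. A single TET2 library was set against a single input, that is, chromatin that met no antibody. The stem cells were used at passage 3 and were induced with IBMX, dexamethasone and insulin, and the labels give no genotype, strain or age. The deposited list of 14103 peaks holds the interval of each peak and its −log10 p, the score the authors' peak caller gave it against the input.

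Potassium channels let potassium leave or enter the cell and so set the membrane potential. Voltage-gated (Kv) pores open on depolarisation, silent Kv subunits form no channel alone and modify Kv2 channels, calcium- or sodium-activated pores respond to those ions inside the cell, inward rectifiers (Kir) and the tandem-pore K2P channels set the resting potential, and auxiliary subunits tune the pores. Most are studied in neurons and muscle, and fat cells also use them to hold their membrane potential. TET2 oxidises methylated cytosine, and methylatable cytosines lie mainly in CpG dinucleotides, which are dense at many promoters. A CpG ratio here is the number of CpG observed over the number that the base composition predicts, so that a value near 1 marks DNA with no loss of CpG.

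All positions are on GRCm38 (mm10). Each peak was placed by its midpoint, and a gene was counted once per zone, within 1 kb of any annotated transcription start site (TSS), 1 to 3 kb from its nearest TSS, or in the gene body over 3 kb from every TSS. With a single TET2 library no value has a replicate error and no test was run. Intervals are exact 95% binomial intervals over genes or peaks and cover counting error only, and neighbouring genes and paralogs are not independent. The list gives no read counts, so the number of reads behind each peak is unknown here. The whole list spans −log10 p values of 3.07 to 335.2, and its median is 6.21.

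TET2 peaks were found at the promoters of 35 of the 92 potassium channel genes, or 38% (28.1% to 48.8%), where 24.6% of all protein-coding genes had a peak within 1 kb of a TSS. Between 1 and 3 kb, 4 members had a peak, or 4.35% (1.20% to 10.8%), near the 5.05% of all genes. In the gene body, 22 members had a peak, or 23.9% (15.6% to 33.9%), against 13.0% of all genes. In any of the 3 zones, 49 members had at least 1 peak, or 53.3% (42.6% to 63.7%), against 36.4% of all genes, and 43 had none. The share over all genes lay below the interval of the members within 1 kb and in the gene body, and inside it between 1 and 3 kb.

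Of the 49 members with a peak, 30 had 1 peak, 13 had 2, 4 had 3 and 2 had 4, which gave 76 peaks in all. The promoter zone held 38 of these peaks, the zone from 1 to 3 kb held 4 and the gene bodies held 34. A promoter peak was the only kind for 23 members, and 11 had both a promoter peak and a gene body peak. Another 11 had a peak in the gene body alone.

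The number of TSSs and the CpG ratio of the promoter both bear on the chance of a peak, so the share was also read against other protein-coding genes at the same TSS number and CpG ratio. The members had 1 to 15 TSSs with a median of 3, equal to the median of all genes. Their highest CpG ratio within 500 bp of a TSS had a median of 0.619, against 0.627 for all genes. Averaged over the strata the members occupy, other genes had a promoter peak in 24.9%, which would be 22.9 members where 35 were seen, a ratio of 1.53 (1.13 to 1.95). Between 1 and 3 kb the ratio was 0.825 (0.227 to 2.04). In the gene body it was 1.84 (1.20 to 2.61), but 1.23 (0.803 to 1.74) with gene length in place of TSS number and 1.29 (0.845 to 1.83) with the bases of the zone in its place. These intervals treat the standardised share as fixed. The promoter ratio thus changed little on allowing for TSS number and CpG ratio, from 1.55 without any standardisation.

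**Figure D1:**
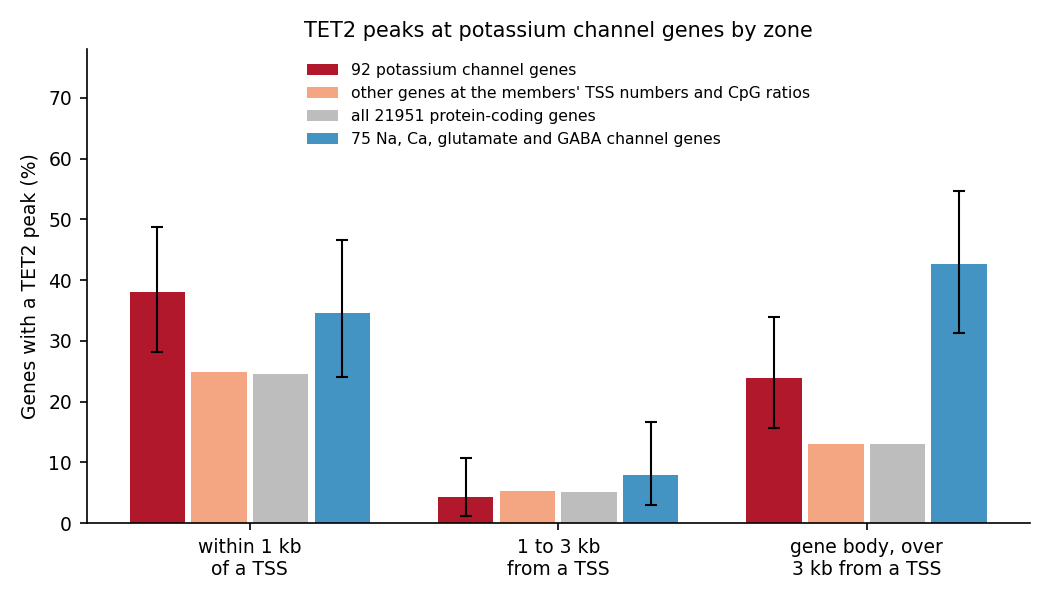
Share of genes with a TET2 peak (y axis, percent) in each of 3 zones (x axis), for the 92 potassium channel genes, for other genes at the members' TSS numbers and CpG ratios, for all 21951 protein-coding genes and for 75 sodium, calcium, glutamate and GABA channel genes. Error bars are exact 95% binomial intervals, and the potassium channel bar stands above the grey bar at promoters (38% against 24.6%) and in gene bodies (23.9% against 13.0%) but not from 1 to 3 kb. The grey, pale and blue bars make no allowance for gene length, with which the gene body ratio of the potassium channel genes was 1.23 (0.803 to 1.74).

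Within the potassium channel genes, promoter peaks followed CpG ratio. A promoter peak was present at 27 of the 48 members with a CpG ratio of at least 0.6, or 56.3% (41.2% to 70.5%), against 39.2% of all genes in that range. From 0.4 to 0.6 it was present at 6 of 21, or 28.6% (11.3% to 52.2%), against 21.4%. Below 0.4 it was present at 2 of 23, or 8.70% (1.07% to 28.0%), against 3.27%. Those 2 were Kcnv2, a silent Kv subunit known from the retina, with a CpG ratio of 0.272, and Kcna5, a Kv1 pore of heart and vessels, with 0.297, both named after their values were seen. These ratios are for the DNA within 500 bp of a TSS. The Kcnv2 midpoint lay outside that window, 907 bp downstream, and the peak itself had a CpG ratio of 0.617. The Kcna5 peak itself had 0.354. In the other direction, 14 members with a CpG ratio of at least 0.6 had no peak in any zone. Among them were Kcnh2, the cardiac ERG channel, and Kcnq3, a Kv7 pore, with CpG ratios of 0.812 and 0.773, also named after their values were seen.

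By TSS number, 7 of the 18 members with a single TSS carried a promoter peak, that is 38.9% (17.3% to 64.3%), where all genes with 1 TSS had one in 14.5%. With 2 TSSs it was 10 of 26, or 38.5% (20.2% to 59.4%), against 16.5%. With 3 to 4 TSSs it was 10 of 27, or 37.0% (19.4% to 57.6%), against 24.3%. With 5 to 8 TSSs it was 4 of 15, or 26.7% (7.79% to 55.1%), below the 33.1% of all genes but with an interval that holds that share. Over 8 TSSs it was 4 of 6 (22.3% to 95.7%), against 39.4%. Over all genes the share rose with TSS number, and among the members it was nearly level up to 4 TSSs.

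**Figure D2:**
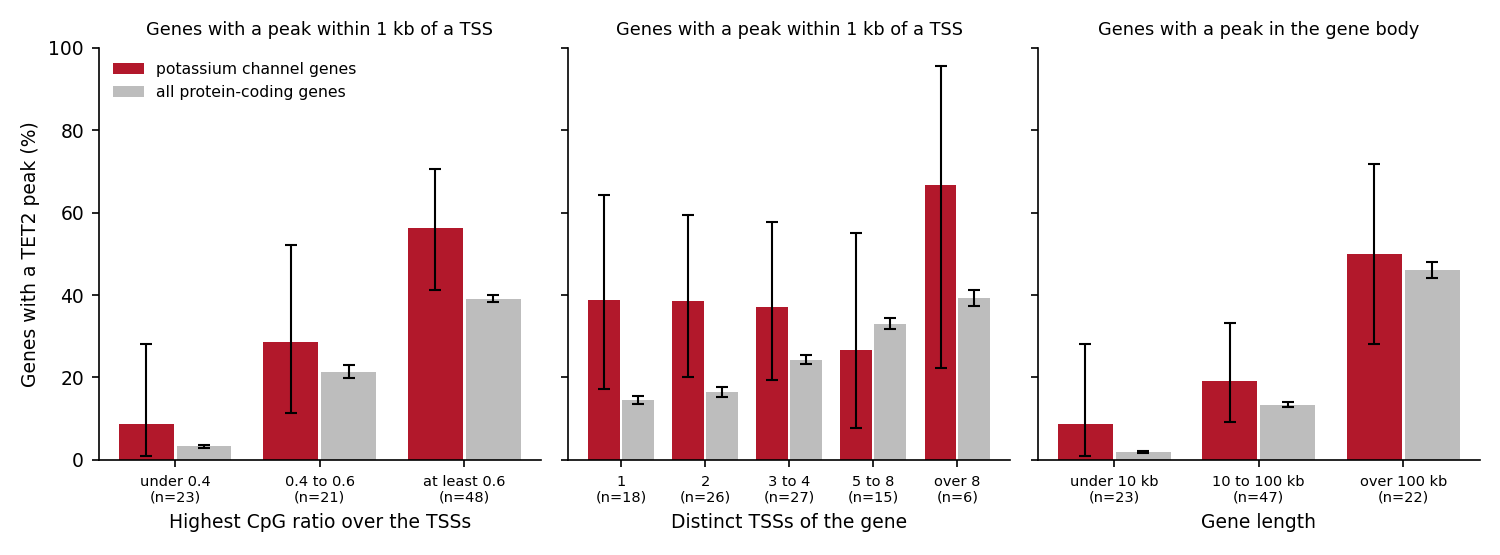
Share of genes with a TET2 peak (y axis, percent) by highest CpG ratio over the TSSs (left) and by number of distinct TSSs (middle), both for promoter peaks, and by gene length for gene body peaks (right). Red bars are potassium channel genes with their number under each bar, grey bars all protein-coding genes, and error bars exact 95% binomial intervals. The red bar rises with CpG ratio from 8.70% to 56.3%, and in genes over 100 kb the red and grey gene body bars are 50% and 46.0%.

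The largest −log10 p at a potassium channel promoter belonged to Kcnma1, the pore of the large-conductance calcium-activated (BK) channel, at 11.8. This peak ranked 475 in the whole list and lay at chr14:24004653-24005320, with its midpoint 127 bp upstream of an internal TSS. The midpoint was in an intron, 9505 bp downstream of the most upstream TSS. That midpoint also lay 5 bp from the TSS of 4930519K11Rik, a noncoding RNA of a bidirectional promoter. Kcnq5, a Kv7 pore of the M-current, followed with 11.4 at chr1:21961265-21961800, 49 bp downstream of a TSS and in a coding exon. Kcnn2, the small-conductance calcium-activated channel of many neurons, had 10.8, in a coding exon, 148 bp upstream of an internal TSS.

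Kcnv1, a silent Kv subunit, had 10.7 at chr15:45114183-45114698, 387 bp downstream of a TSS in a coding exon. Kcnk3, the acid-sensitive K2P leak channel that has been linked to brown fat, had 10.5 at chr5:30588395-30588941, 498 bp downstream of a TSS. The other members with the 10 largest promoter values were Kcnab2, a beta subunit of Kv1 channels, with 9.98, Kcnh8 of the EAG family with 9.66, Kcnk15, a K2P subunit, with 8.68, Kcng1, a silent Kv subunit, with 8.64, and Kcnmb4, the BK beta subunit of neurons, with 8.46. The midpoints at Kcnk3, Kcnh8 and Kcnmb4 lay nearer to a TSS of another gene, namely Gm9899 (49 bp), Gm27217 (189 bp) and Kcnmb4os2 (159 bp). The −log10 p values are those of 1 library, and neighbours in this order cannot be told apart.

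The sequences show how densely CpG was packed in these peaks. For 4 of the 5 members with a promoter peak of at least 10, Kcnma1, Kcnq5, Kcnv1 and Kcnk3, the stretch of 120 bp with the most CpG outside annotated untranslated regions is given on the plus strand, with CpG in capitals. The Kcnma1 stretch, chr14:24004886-24005005, lies 146 to 27 bp upstream of a TSS and holds 18 CpG. The Kcnq5 stretch, chr1:21961337-21961456, is coding sequence 125 to 244 bp downstream and holds 21. The Kcnv1 stretch, chr15:45114381-45114500, is coding sequence 327 to 446 bp downstream and holds 12, the fewest of the 4. The Kcnk3 stretch, chr5:30588591-30588710, lies 421 to 540 bp downstream, its middle in an intron, and holds 19.
Kcnma1: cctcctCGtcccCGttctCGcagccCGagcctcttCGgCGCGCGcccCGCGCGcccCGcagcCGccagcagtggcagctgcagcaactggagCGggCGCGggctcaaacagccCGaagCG
Kcnq5: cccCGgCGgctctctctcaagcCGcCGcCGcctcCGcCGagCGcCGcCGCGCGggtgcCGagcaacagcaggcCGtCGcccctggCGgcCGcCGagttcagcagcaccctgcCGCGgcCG
Kcnv1: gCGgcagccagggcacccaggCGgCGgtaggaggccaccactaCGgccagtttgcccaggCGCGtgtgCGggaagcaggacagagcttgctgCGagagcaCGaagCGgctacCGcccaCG
Kcnk3: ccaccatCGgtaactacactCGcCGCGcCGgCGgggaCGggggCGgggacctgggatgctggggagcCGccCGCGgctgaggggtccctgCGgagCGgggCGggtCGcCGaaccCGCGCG

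The scores of these promoter peaks were like those of all promoter peaks. The 38 promoter peaks had −log10 p from 3.92 to 11.8 with a median of 6.83, and the 5170 peaks within 1 kb of any protein-coding TSS also had a median of 6.83, with quartiles of 5.68 and 8.37. Values of at least 10 were found in 5 of the 38, against 10.7% of all promoter peaks, and values under 5 in 4, against 10.9%. The median length was 470 bp (range 375 to 763 bp), against 467 bp. Their GC content had a median of 66.1% and their CpG ratio one of 0.768, against 66.1% and 0.789. The medians of score, length and composition were thus close to those of all promoter peaks.

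Midpoints lay at or downstream of the nearest TSS in 25 of the 38 promoter peaks, or 65.8% (48.6% to 80.4%), against 71.2% of all promoter peaks. The offsets ran from -559 bp at Kcnc4 to 966 bp at Kcnj8, with a median of 146 bp downstream. Of the 38, 16 lay within 200 bp of a TSS, or 42.1%, against 58.0%, with no interval computed. Offsets at members were taken from the member's own TSSs. Those of all promoter peaks were taken from the nearest TSS of any protein-coding gene, so the measures differ. The midpoint fell in an untranslated part of an exon in 14 peaks, in a coding exon in 10, in an intron in 7, in a noncoding exon in 2 and outside the gene in 5. The coding share of 26.3% (13.4% to 43.1%) holds the 28.4% of all promoter peaks. In 11 of the 38 the midpoint lay over 1 kb from the most upstream TSS of the gene. Another gene had a TSS within 1 kb of the midpoint in 10 of the 38 and a nearer TSS than the member in 5, and only at Kcnab2 was the closest such gene protein-coding (Nphp4, 615 bp away).

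**Figure D3:**
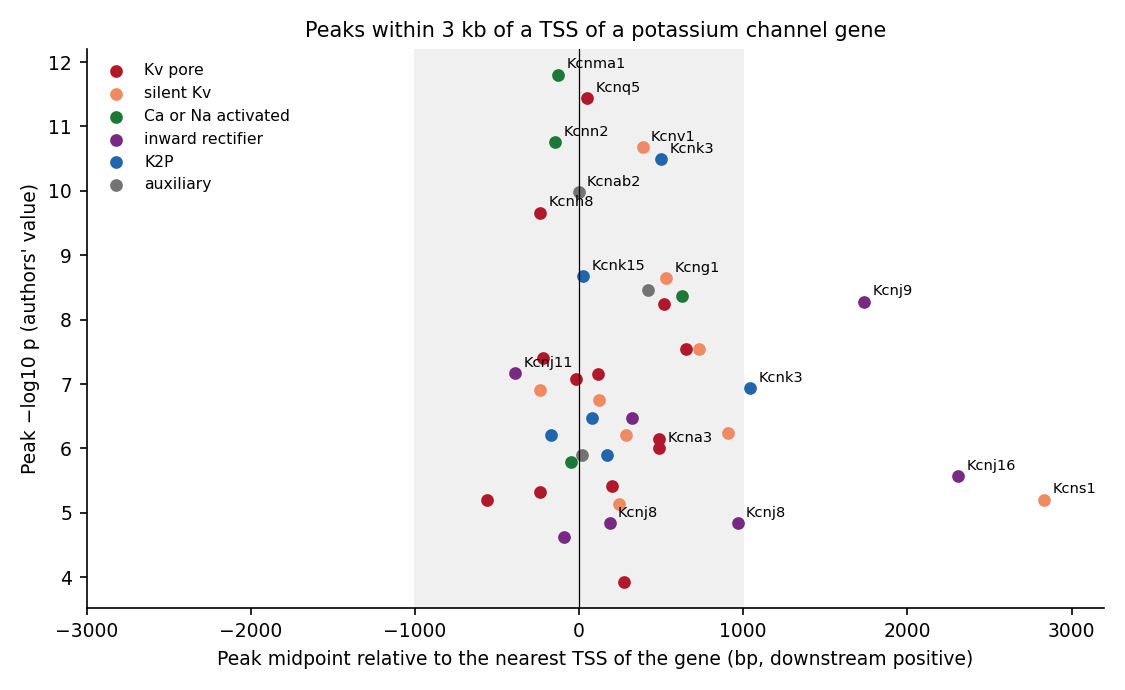
Peaks within 3 kb of a TSS of a potassium channel gene, by the position of the midpoint relative to the nearest TSS of that gene (x axis, bp, downstream positive) and the authors' −log10 p (y axis), coloured by class of subunit. Grey marks 1 kb each side of the TSS, where 38 of the 42 peaks lie, and all 4 peaks outside it are downstream, at 1043 to 2833 bp.

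By class, 13 of 29 Kv pore genes had a promoter peak, or 44.8% (26.4% to 64.3%), with 30.9% in other genes at their TSS numbers and CpG ratios. Of the 8 Kv1 pores 5 had one, or 62.5% (24.5% to 91.5%), against 21.3%, below that interval. These were Kcna1, Kcna2, Kcna3, Kcna5 and Kcna6, with −log10 p of 8.24, 7.40, 6.01, 7.16 and 5.42. Kcna3, a Kv1 pore of T cells that has been linked to body weight, had its peak 488 bp downstream of its only TSS, in its coding exon. The Kv1 genes lie in tandem: Kcna5, Kcna1 and Kcna6 on chromosome 6 (126532551 to 126740674) all had a promoter peak, and on chromosome 3 (107036169 to 107195721) Kcna3 and Kcna2 had one while Kcna10 had none. Neighbours in such a cluster share their surroundings and are not independent cases. The subfamily was picked out after its value was seen. Of the 8 EAG family genes 2 had a promoter peak, where 29.4% of other genes at their TSS numbers and CpG ratios had one. Of the Kv3 genes 2 of 4 had one, against 36.5%, and of the Kv4 genes 1 of 3, against 28.7%.

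Silent Kv subunits had the highest share of the 6 classes, with a promoter peak at 8 of 10 genes, or 80.0% (44.4% to 97.5%), where other genes at their TSS numbers and CpG ratios had 26.8%. The 8 were Kcnv1 (−log10 p 10.7), Kcng1 (8.64), Kcns3 (7.54), Kcng3 (6.90), Kcng2 (6.76), Kcnv2 (6.24), Kcnf1 (6.21) and Kcns2 (5.13). Of the remaining pair, Kcns1 had a peak 2833 bp downstream of its TSS and Kcng4 had none. The class was singled out after its value was seen, and it is small. Without it, 27 of 82 members had a promoter peak and the ratio to the standardised share was 1.33 (0.928 to 1.79), so the interval then holds 1.

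For the remaining classes the share of other genes lay inside the interval. Among the 13 K2P genes 5 carried a promoter peak, or 38.5% (13.9% to 68.4%), against 28.6% in other genes at their TSS numbers and CpG ratios, and these were Kcnk2, Kcnk3, Kcnk4, Kcnk6 and Kcnk15. Kcnk10, a K2P channel that has been linked to adipogenesis, had a CpG ratio of 0.864 and no peak in any zone. Calcium- or sodium-activated pores had one in 3 of 8, or 37.5% (8.52% to 75.5%), against 23.5%, at Kcnma1, Kcnn2 and Kcnn3. Inward rectifiers had one in 4 of 15, or 26.7% (7.79% to 55.1%), against 18.7%.

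Among the inward rectifiers, the pores of the ATP-sensitive channel, Kcnj8 and Kcnj11, both had promoter peaks. Kcnj8, the pore in vascular muscle, had a pair of adjacent peaks 187 and 966 bp downstream of a TSS. Each had a −log10 p of 4.84, among the weakest of the set, and both are lost at a threshold of 5. The paper's reporting summary gives the matching p as the setting of the peak caller, yet the list holds values down to 3.07. The reason for this is not known here. Kcnj11, the pore in the pancreatic beta cell, had 1 peak with 7.17, 390 bp upstream of an internal TSS, in its coding exon and over 1 kb from every TSS of a protein-coding transcript. Auxiliary subunits had a promoter peak in 2 of 17, or 11.8% (1.46% to 36.4%), against 17.2%, at Kcnab2 and Kcnmb4. None of the 5 Kcne genes and none of the 4 Kcnip genes had one, which allows shares of up to 52.2% and 60.2%. Other genes at their TSS numbers and CpG ratios had 9.46% and 24.1%, so few or none would be found in sets of this size.

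**Figure D4:**
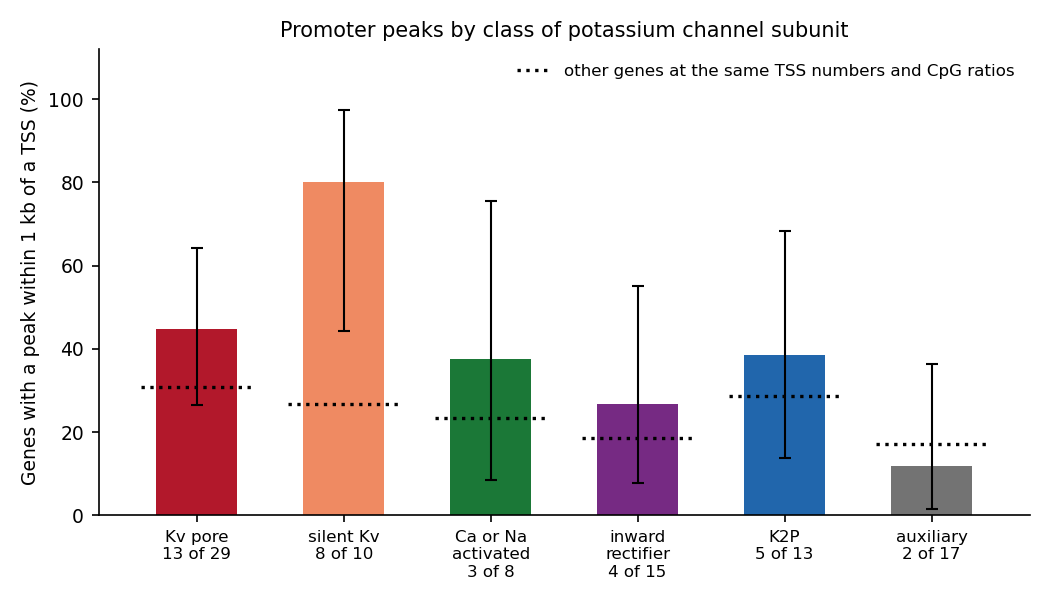
Share of potassium channel genes with a TET2 peak within 1 kb of a TSS (y axis, percent) by class of subunit (x axis, with counts). Error bars are exact 95% binomial intervals and dotted lines the share in other genes at the same TSS numbers and CpG ratios. The line lies below the interval for the silent Kv subunits (80.0% against 26.8%) and inside the interval for the other 5 classes.

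The 4 peaks between 1 and 3 kb were all downstream of a TSS. The largest, at Kcnj9, a G protein-gated inward rectifier, had a −log10 p of 8.28 and lay 1735 bp downstream in a coding exon. Kcnk3 had a second peak with 6.94, 1043 bp from an internal TSS but 34246 bp from the most upstream TSS, in a coding exon. Kcnj16, a subunit of mixed inward rectifier channels, had one with 5.57 and Kcns1 one with 5.20. The Kcnk3 peak lay just outside the 1 kb limit, and the Kcnj8 peak at 966 bp and the Kcnv2 peak at 907 bp just inside it. At the 3 kb limit, the Kcns1 peak at 2833 bp lay just inside and the Kcnj14 peak at 3236 bp just outside. The 3 peaks in coding exons had CpG ratios of 0.824 to 1.12 and the Kcnj16 peak one of 0.164, where the median over all 922 peaks of this zone was 0.455. Of those 922, 45.2% lay in coding exons.

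The stretches of 120 bp with the most CpG in the Kcnj9, Kcnk3 and Kcns1 peaks are all coding sequence and are given because these exons, away from the start site, are as dense in CpG as the promoter peaks. They lie at chr1:172326422-172326541, chr5:30622437-30622556 and chr2:164168353-164168472 and hold 19, 19 and 23 CpG. They are printed on the plus strand with CpG in capitals.
Kcnj9: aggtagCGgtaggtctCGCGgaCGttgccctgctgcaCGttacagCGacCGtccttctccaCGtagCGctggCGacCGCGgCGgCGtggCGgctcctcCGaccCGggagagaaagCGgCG
Kcnk3: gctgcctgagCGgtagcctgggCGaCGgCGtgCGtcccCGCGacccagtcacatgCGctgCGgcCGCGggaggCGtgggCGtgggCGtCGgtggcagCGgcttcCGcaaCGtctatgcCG
Kcns1: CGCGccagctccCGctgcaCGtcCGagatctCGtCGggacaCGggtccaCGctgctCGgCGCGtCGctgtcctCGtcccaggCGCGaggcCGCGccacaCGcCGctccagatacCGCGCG

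Gene body peaks were poorer in CpG than promoter peaks and spread over long distances. The 34 peaks in 22 genes lay 3236 to 506656 bp from the nearest TSS of their gene, with a median of 35922 bp. Of these, 24 had their midpoint in an intron, 7 in a coding exon and 3 in an untranslated part of an exon. The median −log10 p was 6.64, and that of all 3362 gene body peaks was 6.21. Their CpG ratio had a median of 0.335, close to the 0.352 of all gene body peaks and well under that of the promoter peaks. Repeat-masked sequence made up at least 50% of 13 of the 34, against 24.3% of all gene body peaks, with no interval computed. It did so in none of the 38 promoter peaks of the set. Another gene had a nearer TSS in 18 of the 34, and without such peaks 14 members had a gene body peak, or 15.2% (8.58% to 24.2%), against 7.23% of all genes. The part of repeats and of nearby genes in these calls was not tested.

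Among the members with the largest gene body values were Kcnh1, an EAG pore, with a −log10 p of 9.58, Kcnc1, a Kv3 pore of fast-spiking neurons, and Kcnk2, a mechanically gated K2P channel, both with 8.65, and Kcnj14, an inward rectifier, with 8.52. At Kcnc1 the peak lay in a coding exon 5149 bp downstream of a TSS. The Kcnk2 peak was intronic and 80.1% repeat-masked.

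Kcnma1 and Kcnn2 had the most peaks, 4 each. Beside its promoter peak, Kcnma1 had 3 intronic peaks, with −log10 p of 8.51, 7.34 and 6.21, of which 85.9%, 47.4% and 83.9% of the bases were repeat-masked. Kcnn2 had a second promoter peak with 5.79, 95 bp from its most upstream TSS, in addition to the one with 10.8, and intronic peaks with 6.06 and 5.13. Kcnma1 spans 725061 bp and Kcnn2 417165 bp.

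Gene length differed between the members and all genes, and longer genes more often had a gene body peak. The members had a median length of 28175 bp against 17403 bp for all genes. Over 100 kb, 11 of 22 members had a gene body peak, or 50% (28.2% to 71.8%), against 46.0% of all genes. From 10 to 100 kb it was 9 of 47, or 19.1% (9.15% to 33.3%), against 13.4%, and under 10 kb 2 of 23, or 8.70% (1.07% to 28.0%), against 1.89%. With gene length in place of TSS number in the standardisation, the ratio was 1.23 (0.803 to 1.74), so the share of other genes of like length and CpG ratio lay inside the interval. Per length, the members' bodies held 3.68 peaks per Mb and those of all genes 4.47, with overlapping genes counted separately. Within 1 kb of a TSS the same measure was 92.9 peaks per Mb for the members and 56.0 for all genes.

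Motifs were searched on both strands within 100 bp of the midpoint. The SP1 motif GGGCGG was present in 14 of the 38 promoter peaks, or 36.8% (21.8% to 54.0%), against 47.0% of all promoter peaks. The AP-2 motif GCCNNNGGC was present in 10, or 26.3% (13.4% to 43.1%), against 27.9%. The C/EBP motif TTGCNNAA was present in 1, or 2.63% (0.0666% to 13.8%), against 2.55%. In the gene body peaks they were present in 3, 4 and 0 of 34, against 12.5%, 14.2% and 4.67% of all gene body peaks. Each interval holds the share of all peaks of its zone, so no difference in these 3 motifs was detectable with this number of peaks.

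Sodium, calcium, glutamate and GABA channel genes were set beside the potassium channel genes as the most similar families. Of these 75 genes, 26 had a promoter peak, or 34.7% (24.0% to 46.5%), an interval that holds the 24.6% of all genes. It also overlaps the interval of the potassium channel genes. In the gene body 32 had a peak, or 42.7% (31.3% to 54.6%), against 13.0% of all genes. This share is above the 23.9% of the potassium channel genes, with intervals that overlap slightly. These differences were not tested, and no allowance was made for gene length, with which the gene body share rises. Of 13 partners and relatives of potassium channels outside the Kcn symbols, 5 had a promoter peak, or 38.5% (13.9% to 68.4%), an interval that holds the 24.6% of all genes. These were Dpp6, an auxiliary protein of Kv4 channels, with a largest −log10 p of 8.85, Lrrc38, a BK gamma subunit, with 9.98, Hcn4, the pacemaker channel, with 6.45, Amigo1, an auxiliary protein of Kv2 channels, with 5.39, and Abcc9, the sulfonylurea receptor that pairs with Kcnj8, with 4.73. Abcc8, the receptor that pairs with Kcnj11, had no peak in any zone.

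A peak list does not measure expression, so neither the labelled cell type nor the activity of any channel gene could be checked in these data. Of 9 adipocyte marker genes 1 had a promoter peak, or 11.1% (0.281% to 48.2%), an interval that holds the 24.6% of all genes. This was the leptin gene Lep with a −log10 p of 11.2. Adipoq, Fabp4, Pparg, Plin1, Cebpa, Cidec, Lipe and Slc2a4 had no peak in any zone. Of 6 markers of other cells of fat tissue 1 had a promoter peak, or 16.7% (0.421% to 64.1%), an interval that also holds that share. This was Pdgfra with 11.9, while Adgre1 had a gene body peak with 5.13. Pdgfrb, Pecam1, Cdh5 and Ptprc had no peak in any zone.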

How the data were processed

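Reads of the TET2 ChIP and input libraries were trimmed with NGS QC Toolkit and aligned with bowtie1, and peaks were called with MACS2 (2.1.0 in the submitters' processing notes), all by the authors. The deposited list gives the −log10 p of each peak against the input, as the authors' peak caller computed it. The processing notes name mm10 and the methods name GRCm39, and GRCm38 was used. No midpoint lay in an assembly gap or past a chromosome end. Starts were taken as counted from 1.

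The members and lists were chosen with earlier results of these data known. TSSs were the starts of all GENCODE M21 transcripts. Strata were 5 groups of TSS number (1, 2, 3 to 4, 5 to 8 and over 8) by 10 equal groups of CpG ratio. The standardised share was the mean over members of the share among protein-coding non-members of the same stratum, the smallest with 129 genes. Named genes were the 10 members with the largest −log10 p within 1 kb, the 10 from 1 to 3 kb (4 existed), the 5 in gene bodies (1 is not reported here), members with at least 4 peaks, and Kcna3, Kcnk3, Kcnk10, Kcnma1, Kcnj8 and Kcnj11. Others are said to be named later, illustrate a class or list, or mark a limit. The placement was tested on simulated peaks at long genes with 1 TSS, and the standardisation on simulated strata. The choice among several TSSs of a gene was not tested in this way. Alternatives were other score thresholds, placements, TSS sets, members and strata. Sequences are from the RefSeq copy of GRCm38. Intervals came from scipy 1.17.1, sequence reading from pysam 0.24.0 and samtools 1.23.1, figures from matplotlib 3.10.9 and tables from pandas 2.3.3 and numpy 2.4.6 under Python 3.11.15. The input library has no values of its own in this report.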

Additional observations from a re-analysis of the deposited data

How the results depend on the processing

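No paired analysis was possible because neither the TET2 nor the input library was replicated. The alternatives gave 60 values, of which 4 moved and 56 did not. A count was taken as moved past 1.5 times and a ratio outside the interval of the reported value. All 4 that moved were counts. The intervals are wide, so a ratio that did not move can still have an interval that holds 1. With peaks of −log10 p of at least 7, 18 members had a promoter peak, 1 had one from 1 to 3 kb and 12 had one in the gene body, since fewer peaks enter by construction, and all genes had 12.0%, 2.23% and 5.51%. The promoter ratio was then 1.61 (0.988 to 2.39) and the gene body ratio 2.35 (1.25 to 3.91). Without peaks nearer to a TSS of another gene, 14 members had a gene body peak, with a ratio of 2.29 (1.29 to 3.64). The gene body ratios of 2.35 and 2.29 make no allowance for gene length. The promoter ratio ran from 1.33 to 1.69 over 13 alternatives, and its interval lay above 1 in 11. The exceptions were the threshold of 7 and the set without silent Kv subunits, an alternative chosen after seeing the data. The gene body ratio ran from 1.23 to 2.35, and its interval held 1 with gene length (1.23), with the bases of the zone (1.29) and with RefSeq TSSs and spans (1.43, 0.961 to 1.99). The ratio from 1 to 3 kb ran from 0.466 to 1.57, on both sides of 1, over 12 alternatives.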
